A study of Mus musculus with 4 samples.

Results

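Chemokines are small secreted proteins, and with their receptors they formed a set of 35 genes read in isolated adult mouse heart muscle cells. The set holds every gene whose symbol begins Ccl, Cxcl, Cx3c, Xcl, Xcr, Cxcr or Ackr, or Ccr and a digit, and whose probe was well above background on at least 1 of 4 arrays. The array design carried 57 such genes among 20870 named ones. Of the 35 members, 25 encode ligands and 10 encode receptors, and 28 were well above background on at least 2 arrays and were tested. The cells came from 10-week-old male mice bred from an αMHC promoter-driven Cre line and a tetO line that carries the Yamanaka factors Pou5f1, Sox2, Klf4 and Myc (OSKM). Control mice received PBS and treated mice doxycycline, both for 2 days, with 2 arrays per group, titled CM-Ctl and CM-Dox and called control array 1 and 2 and doxycycline array 1 and 2 here. Every animal carried the same alleles, no group received doxycycline without the factor transgene, and the αMHC promoter works in heart muscle cells, so that drug and factors cannot be told apart. Levels are processed signals on a log2 scale relative to each array's 75th percentile, so 0 is that percentile and 1 unit is a doubling. A positive difference means a higher mean after doxycycline, and ± gives its standard error from limma (SE, n = 2 per group).

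Chemokines bind heparan sulfate on vessel walls and signal through receptors coupled to inhibitory G proteins, which turns crawling leukocytes towards the source. The names follow the spacing of conserved cysteines (CC, CXC, CX3C, XC). Inflammatory chemokines are switched on by NF-kB and interferon signals in stromal, endothelial and immune cells and recruit neutrophils, monocytes or T cells, whereas homeostatic ones such as Cxcl12 keep cells in place. Atypical receptors bind chemokines without G protein signalling and remove or transport them. In heart, resident macrophages, endothelial cells, fibroblasts and heart muscle cells can all make chemokines.

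The 75th percentile of the processed signal ran from 112 on control array 1 to 248 on doxycycline array 1, and 50.6% to 51.8% of spots were well above background. Copies of the same probe had a median coefficient of variation of 10.99% on control array 1, the noisiest array, beside 4.02% to 4.81% on the other 3. All 15 heart muscle markers examined were well above background. Control array 1 stood apart over all 12542 tested genes, correlating at 0.910 to 0.934 with the other arrays, which correlated at 0.948 to 0.971 among themselves. In the chemokine set, control array 1 lay above control array 2 for 25 of the 28 tested members (46.6% of all genes), and by at least 1 for 22 of 28, against 17.1% of all genes. That gap had a median of 1.33 over the set, 2.26 over red cell, 1.70 over macrophage, 1.68 over endothelial and 1.65 over fibroblast markers. It was -1.16 over heart muscle markers and 0.554 to 1.235 over the other marker lists. Nothing in the labels says that arrays came from separate animals, so the p-values rest on a spread between samples that may be technical. In bulk RNA, fewer cells of a type and less RNA per cell cannot be told apart.

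No chemokine or receptor gene passed the test. At an adjusted p under 0.05, limma called 0 of 28 members higher and 0 lower, as it did for 0.0% of all genes in each direction, and the smallest adjusted p of a member was 0.227. Before adjustment, p lay under 0.05 for 2 higher members, Ccr8 and Ccl6, against 3.17% of all genes, and for 3 lower members, Cx3cr1, Ccl24 and Ackr4, against 3.89%. All 5 also differed by at least 1, as 3.14% of all genes did upwards and 3.82% downwards. Ccr8, Cx3cr1 and Ackr4 were well above background in 1 group only, so they entered the test through the group where they were high, and their count is no support for a direction. By mean, 12 members lay above control (45.2% of all genes) and 16 below (54.8%). The median difference was -0.35, beside -0.06 over all genes. Without control array 1 those counts were 16 above and 12 below (58.4% of all genes below), and the median was 0.37. Without doxycycline array 1 the median was -1.09 with 22 of 28 members below control (55.4% of all genes), and without doxycycline array 2 it was 0.15 with 13 below (53.3%). Without doxycycline array 1 the fit called 3 of 28 members (0.255% of all genes) and without doxycycline array 2 it called 7 (1.36%); those fits had 1013 prior degrees of freedom (4.69 with all 4 arrays), and the lone doxycycline array was assumed to vary like the controls. Both doxycycline arrays lay above both control arrays for 5 members (14.5% of all genes) and below both for 7 (20.8%), of which Ccr8 among the higher and Cx3cr1, Ackr4 and Cxcr4 among the lower were measured in 1 group only.

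**Figure D1:**
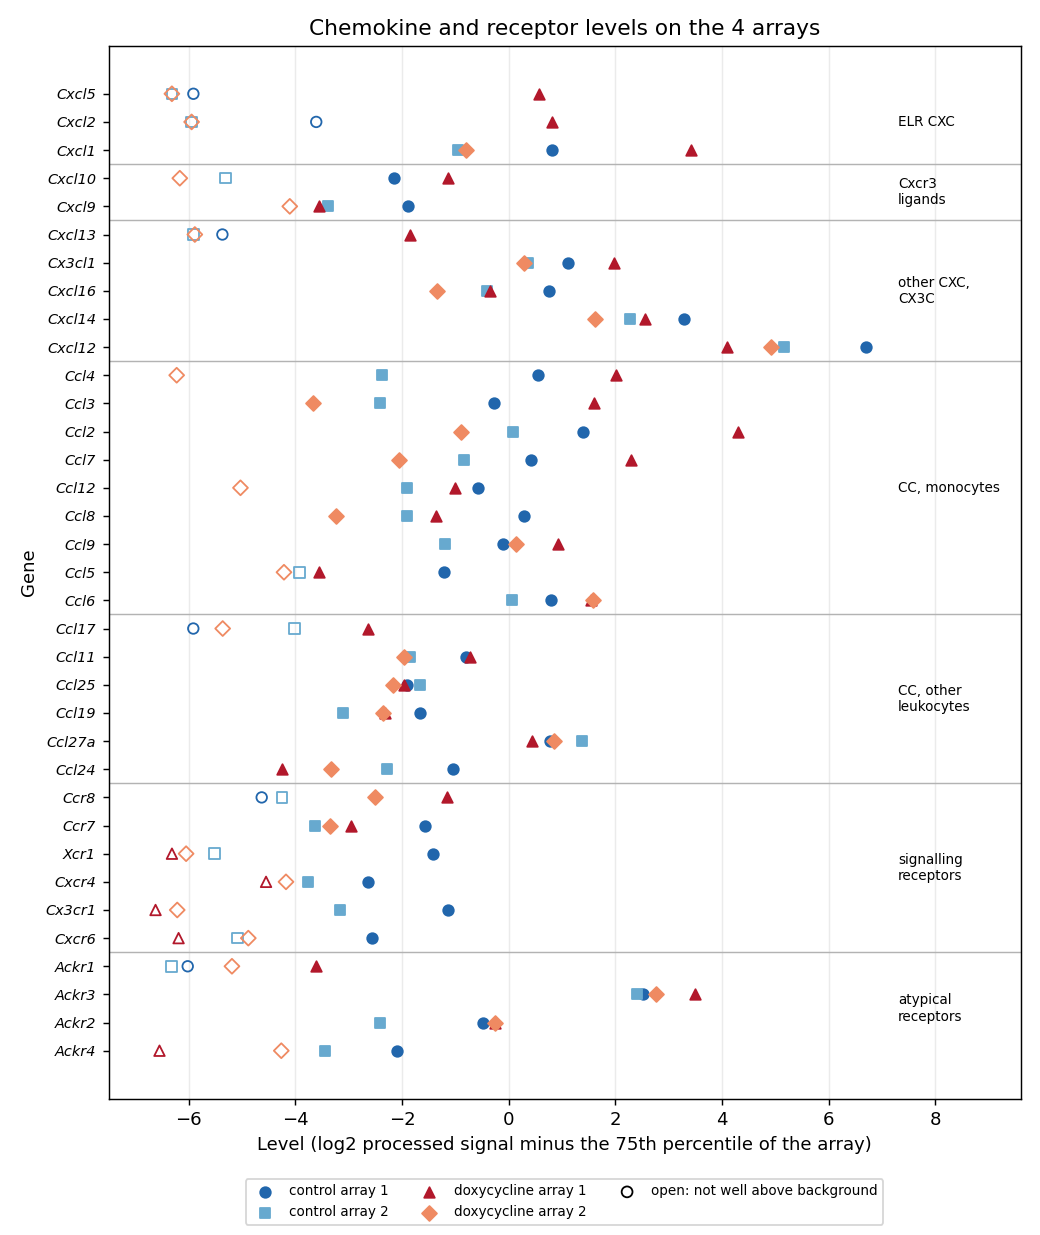
Level of the 35 chemokine and receptor genes on each of the 4 arrays (x axis, log2 processed signal minus the 75th percentile of the array), grouped by role and, within a role, ordered by the gap between the doxycycline arrays. Open symbols were not well above background; doxycycline array 1 stands to the right of the other 3 arrays for Cxcl5, Cxcl2, Cxcl1, Cxcl13, Ccl2, Ccl3 and Ccl7.

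The doxycycline arrays differed from each other in the inflammatory ligands. Doxycycline array 1 lay above doxycycline array 2 for 20 of 28 members (49.7% of all genes). On doxycycline array 1, 7 of the 28 tested members read at least 2 above doxycycline array 2, against 0.853% of all genes, and all 7 were ligands: Ccl2, Ccl3, Ccl4, Ccl7, Ccl12, Cxcl1 and Cxcl10. Ccl4, Ccl12 and Cxcl10 were not well above background on doxycycline array 2. With such readings set to the lowest level well above background on their array, the floor, the same 7 had gaps of at least 2, against 0.726% of all genes. Cxcl2, Cxcl5, Cxcl13 and Ccl17 were seen on doxycycline array 1 alone, so they could not have shown another order, and against the floor their gaps were 4.84, 4.59, 2.16 and 1.38. Among receptors, 0 of 10 had a gap of at least 2. Ackr4, Cx3cr1, Cxcr4, Cxcr6 and Xcr1 were below background on both doxycycline arrays, so no gap could be seen for them. That count therefore does not set receptors apart from ligands. The receptor gene Ackr1 was also seen on doxycycline array 1 alone, with a gap of 0.41 against the floor. In the reverse direction Ackr4 alone read at least 2 higher on doxycycline array 2 (1 of 28 members, against 0.678% of all genes), but it was below background on both doxycycline arrays. With readings at the floor, 0 of 28 members did so, against 0.335% of all genes. Doxycycline array 1 lay above both control arrays for 13 of 28 members (27.3% of all genes), and doxycycline array 2 lay below both for 19 (29.9%). Both held at once for 7 members, against 3.4% of all genes: Ccl2, Ccl3, Ccl4, Ccl7, Ccl11, Cx3cl1 and Cxcl10. The median gap was 0.76 over the tested members and 0.00 over all genes. The control arrays differed too: control array 1 minus control array 2 had a median of 1.33 over the tested members and -0.08 over all genes.

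**Figure D2:**
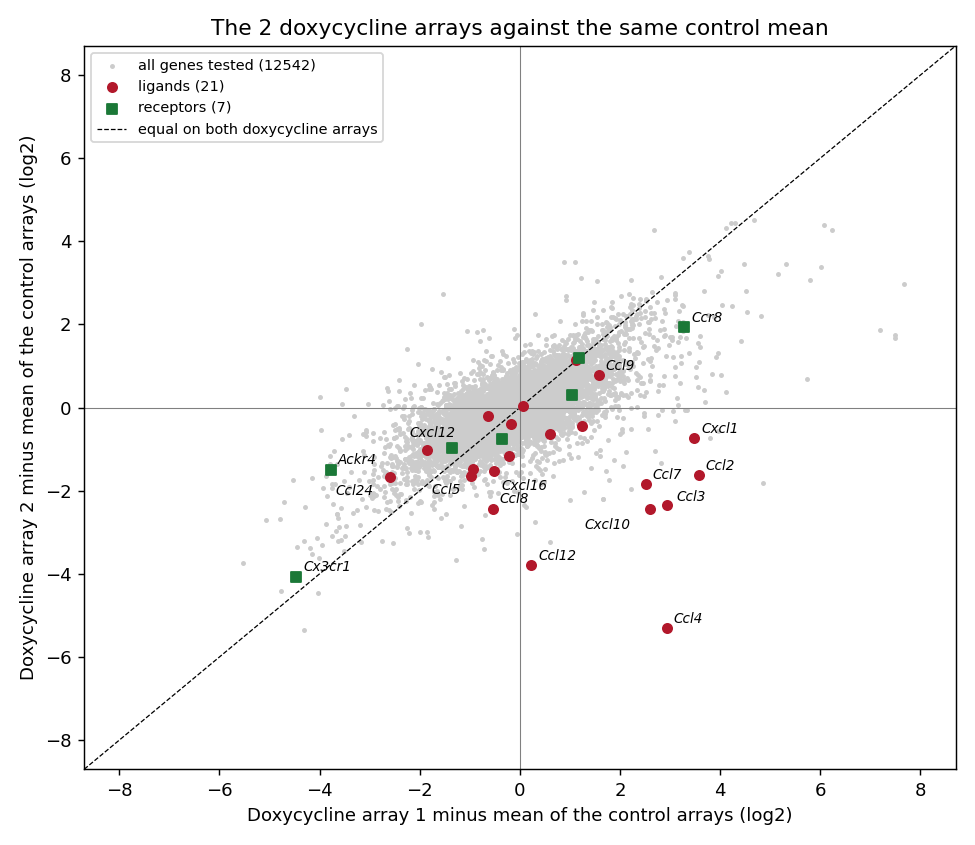
Difference of doxycycline array 1 (x axis) and of doxycycline array 2 (y axis) from the same mean of the control arrays, in log2 units, for 12542 genes (grey), 21 ligands (circles) and 7 receptors (squares). Cxcl1, Ccl2, Ccl3, Ccl4, Ccl7 and Cxcl10 lie right of 0 and below 0, so they read above the control mean on doxycycline array 1 and below it on doxycycline array 2; both axes share the control mean.

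The ELR ligands, CXC chemokines that carry a glutamate-leucine-arginine motif before the cysteines, act on Cxcr2 and attract neutrophils. Cxcl1 read 0.82 and -0.94 in control against 3.42 and -0.80 after doxycycline, with processed signals of 198 and 88.9 against 2660 and 110.6. Doxycycline array 1 was the high array, and doxycycline array 2 lay within the control range. The difference was 1.37 ± 1.31 (SE, adjusted p = 0.925), and it was 3.48 without doxycycline array 2 and -0.74 without doxycycline array 1. Cxcl2, a close relative of Cxcl1 in sequence and action, read -3.61 and -5.94 in control against 0.82 and -5.95 after doxycycline. Cxcl5, an ELR ligand made by epithelial and stromal cells, read -5.91 and -6.31 in control and 0.57 and -6.32 after doxycycline, with a processed signal of 369 on doxycycline array 1 and of 2.42 or less on the other 3. Neither gene was well above background on any array but doxycycline array 1. Both genes are members through that array alone, and on doxycycline array 2 they read no higher than in control, so no difference between the groups is given. Cxcl3 and Cxcl15, the other ELR ligands with a probe, and the receptor genes Cxcr1 and Cxcr2 were undetected throughout.

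Promoters are shown for some of the ligands that were high on doxycycline array 1, because NF-kB sites near the start site are textbook features of several of them. Each stretch is the 120 bases before the annotated start site, 5′ to 3′ on the strand of the gene, from RefSeq on GRCm38.p6. Capitals mark matches to an NF-kB-like motif, GGGA followed by any 4 bases and CC, on either strand.
Cxcl1, chr5:90891125-90891244, plus strand: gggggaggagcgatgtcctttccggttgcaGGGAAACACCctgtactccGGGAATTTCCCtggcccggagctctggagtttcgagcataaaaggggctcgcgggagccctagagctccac
Cxcl2, chr5:90903779-90903898, plus strand: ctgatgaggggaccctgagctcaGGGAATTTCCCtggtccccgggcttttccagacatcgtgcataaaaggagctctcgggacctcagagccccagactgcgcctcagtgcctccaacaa
Cxcl10, chr5:92348890-92349009, minus strand: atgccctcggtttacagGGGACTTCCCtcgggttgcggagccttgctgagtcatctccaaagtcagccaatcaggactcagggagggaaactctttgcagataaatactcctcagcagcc
Ccl3, chr11:83649379-83649498, minus strand: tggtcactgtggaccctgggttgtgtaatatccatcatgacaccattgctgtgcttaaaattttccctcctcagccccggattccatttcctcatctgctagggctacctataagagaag

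The matches in Cxcl1 and Cxcl2 begin close to the start site, 90 and 71 bases before it in Cxcl1 and 97 bases before it in Cxcl2. In both genes the nearer match overlaps a match on the other strand, so the capitals run 1 base longer than the motif. Over 250 bases before the start site, 9 of the 26 members with a promoter in the table held the motif, or 34.6%, beside 19.7% of 27025 genes. These 9 were Ackr2, Ccl19, Ccl27a, Ccr8, Cxcl1, Cxcl2, Cxcl9, Cxcl10 and Cxcl13. Ccl12 and Ccl17, not shown above, also read higher on doxycycline array 1 than on doxycycline array 2 and did not hold the motif. An interferon-response-like motif, GAAA, any 2 bases and GAAA again, on either strand, was held by 3 of 26 members (11.5%, beside 3.46% of genes), namely Ccl19, Cxcl10 and Cxcl14. The members without a promoter entry were Ccl2, Ccl4, Ccl5, Ccl7, Ccl11, Ccl24, Ccr7, Cxcl5 and Cxcl16. A match is a description of these letters, and Ccl3, without the motif in the stretch shown, was among the ligands with the largest gap between the doxycycline arrays.

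Cxcl9 and Cxcl10 are interferon-induced ligands of Cxcr3, the receptor of activated T cells. Cxcl10 read -2.15 and -5.31 in control and -1.13 and -6.17 after doxycycline, and was well above background on array 1 of each group alone. Its difference was 0.08 ± 1.67 (SE, adjusted p = 0.998), with a gap to the floor of 1.85 between the control arrays and of 2.89 between the doxycycline arrays. Cxcl9 read -1.89 and -3.39 in control and -3.57 and -4.10 after doxycycline, both doxycycline arrays below both control arrays and array 2 below background (-1.20 ± 0.58, adjusted p = 0.795). Another Cxcl9 probe was seen on array 1 of each group alone and read -2.17 and -4.46 against -2.85 and -6.30, so that its groups overlapped. Their receptor gene Cxcr3 was below detection throughout.

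The CC ligands that recruit monocytes and macrophages were all detected, 9 of 9. Ccl2, the main ligand of Ccr2 on inflammatory monocytes, read 1.40 and 0.07 in control and 4.31 and -0.90 after doxycycline. Doxycycline array 1 was the highest of the 4 arrays and doxycycline array 2 the lowest, with processed signals of 4911 and 103 (difference 0.97 ± 1.52, adjusted p = 0.968). Ccl7, another Ccr2 ligand, had the same order, with 0.41 and -0.84 in control and 2.30 and -2.06 after doxycycline (0.33 ± 1.30, adjusted p = 0.987). Ccl12, a mouse relative of Ccl2, read -0.57 and -1.90 in control and -1.01 and -5.03 after doxycycline, and was not well above background on doxycycline array 2 (-1.78 ± 1.22, adjusted p = 0.889).

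Ccl3 and Ccl4 attract macrophages and T cells, and Ccl3 binds Ccr1. Ccl3 read -0.27 and -2.41 in control and 1.60 and -3.68 after doxycycline (0.30 ± 1.61, adjusted p = 0.990). Ccl4 read 0.54 and -2.37 in control and 2.02 and -6.23 after doxycycline, where array 2 was not well above background (-1.19 ± 2.42, adjusted p = 0.976). Both genes were highest on doxycycline array 1 and lowest on doxycycline array 2. The Ccl4 gap, 6.03 against the floor, ranked 1 among all 12542 genes with readings at the floor. Ccl4 was called higher without doxycycline array 2 (2.93) and lower without doxycycline array 1 (-5.31), and it stood at 0.40 with normexp background correction. On the same basis the gaps of Ccl3, Ccl2, Ccl7 and Cxcl1, measured on both arrays, ranked 5, 6, 12 and 13. Those of Ccl12 and Cxcl10 were 3.005 and 2.89 against the floor.

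Ccl6 and Ccl9, related ligands of Ccr1 made by myeloid cells, read higher on both doxycycline arrays than on both control arrays. Ccl6 read 0.80 and 0.07 in control and 1.55 and 1.59 after doxycycline, a difference of 1.13 ± 0.44 (SE, 2.19-fold, adjusted p = 0.661 by limma). Ccl9 read -0.11 and -1.19 in control and 0.93 and 0.14 after doxycycline (1.18 ± 0.53, adjusted p = 0.755). Their sign held whichever array was left out, with lowest values of 0.77 for Ccl6 and 0.64 for Ccl9. Ccl8 and Ccl5 were mostly higher on control array 1. Ccl8, a monocyte and eosinophil attractant, read 0.28 and -1.91 in control and -1.36 and -3.24 after doxycycline (-1.49 ± 0.88, adjusted p = 0.856). Ccl5, which attracts T cells and monocytes, read -1.22 and -3.93 in control and -3.55 and -4.21 after doxycycline and was well above background on array 1 of each group alone (-1.31 ± 0.86, adjusted p = 0.879).

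**Figure D3:**
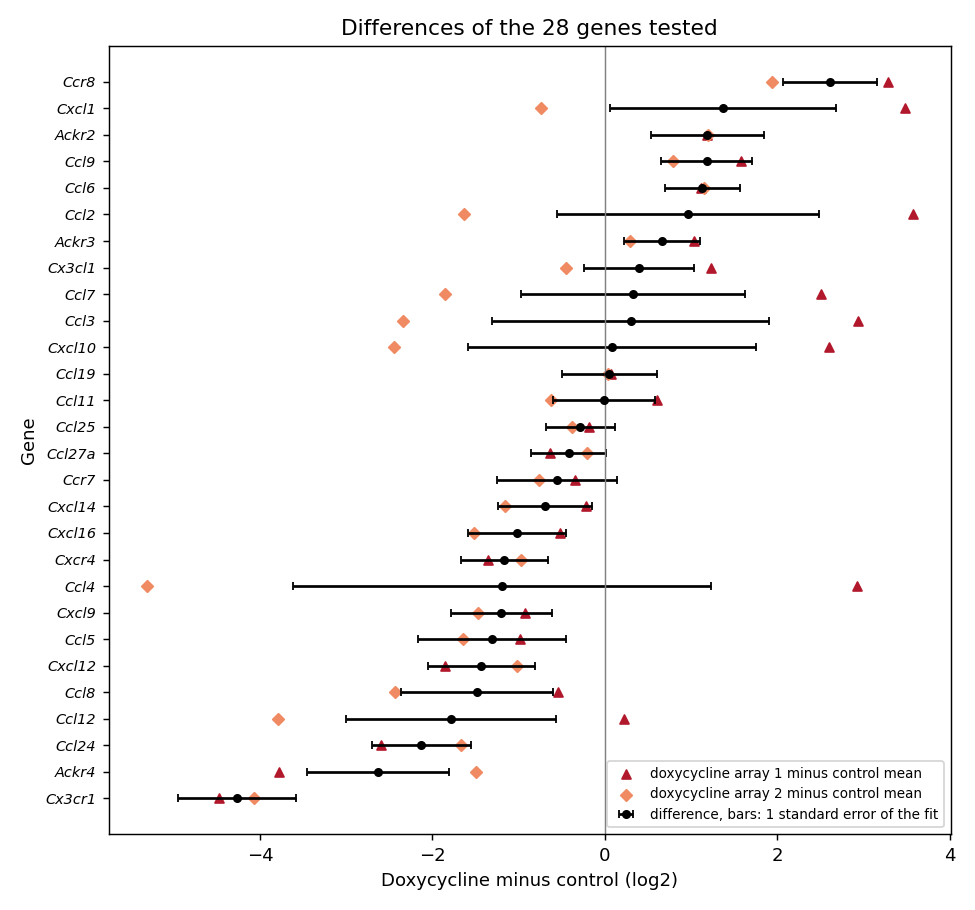
Doxycycline minus control (x axis, log2) for the 28 tested genes, as the mean difference with 1 SE of the fit (circles and bars) and for each doxycycline array against the control mean (triangles and diamonds). For Ccr8, Ccl6, Cx3cr1 and Ccl24 both doxycycline arrays stand on the same side of 0, and for Ccl2, Ccl3, Ccl4, Ccl7 and Cxcl10 they stand on opposite sides.

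Among the CC ligands of other leukocytes, Ccl24 stood out by its small p. Ccl24, an eosinophil attractant that binds Ccr3 and is made by resident macrophages, read -1.04 and -2.28 in control and -4.25 and -3.33 after doxycycline, a difference of -2.13 ± 0.57 (SE, 4.38-fold lower, adjusted p = 0.416 by limma). Its reading on doxycycline array 1 was close to the floor of that array, -4.44, and the difference was -0.98 with normexp background correction. Both doxycycline arrays lay below both control arrays. Ccl11, the eotaxin that shares Ccr3, read -0.80 and -1.85 in control and -0.72 and -1.95 after doxycycline, which put array 1 high and array 2 low in each group, and the difference was -0.01 ± 0.59. Ccl17, a Ccr4 ligand of dendritic cells, was seen on doxycycline array 1 alone, at -2.63, and read -5.91 and -4.02 in control and -5.36 on doxycycline array 2. Ccl19 (0.05 ± 0.55), Ccl25 (-0.28 ± 0.40) and Ccl27a (-0.42 ± 0.44), ligands of Ccr7, Ccr9 and Ccr10, differed by less than their SE. Ccl19 and Ccl27a have near-identical copies in the mouse genome, so their signals may be shared with them, and 1 of the 3 Ccl27a probes had the opposite order, with -1.28 and -0.20 in control and -0.21 and -0.15 after doxycycline.

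Cxcl12 was well above background on all arrays. This homeostatic ligand of Cxcr4 and Ackr3, made by stromal and endothelial cells, read 6.71 and 5.16 in control and 4.09 and 4.92 after doxycycline, with processed signals of 11760 and 6117 against 4221 and 5839. Both doxycycline arrays lay below both control arrays, though doxycycline array 2 stood close to control array 2 (difference -1.43 ± 0.62, 2.70-fold lower, adjusted p = 0.732). The fit gave -0.66 without control array 1. A dimmer Cxcl12 probe for another transcript read 0.88 and -0.40 in control and -0.28 and -0.32 after doxycycline, and its groups overlapped. Cxcl14, a ligand of epithelia and stroma, read 3.28 and 2.27 against 2.55 and 1.61 (-0.69 ± 0.54). Cxcl16, the transmembrane ligand of Cxcr6, read 0.76 and -0.40 against -0.34 and -1.34 (-1.02 ± 0.57). Cx3cl1, the membrane-bound fractalkine of endothelium that binds Cx3cr1, read 1.12 and 0.36 in control and 1.97 and 0.29 after doxycycline (0.39 ± 0.64, adjusted p = 0.972). Cxcl13, which draws B cells through Cxcr5, was well above background on doxycycline array 1 alone, where it read -1.85, and stood between -5.91 and -5.37 elsewhere.

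Of the signalling receptors, 6 of 19 with a probe were well above background anywhere. Cx3cr1, the fractalkine receptor of resident macrophages and patrolling monocytes, was measured in control alone. It read -1.14 and -3.16 in control against -6.62 and -6.22 after doxycycline, where it was not well above background. Against the floor it was 4.22-fold lower after doxycycline (adjusted p = 0.227 by limma). Here and below, a fold "against the floor" sets the mean level of the bright group against the dim group at, per array, the higher of its own value and the floor. Such a fold is no strict minimum, because the floor is the lowest detected level and other probes stayed undetected above it. A Cxcr6 probe did so at -3.41 on control array 1, where the floor was -3.69. A dimmer Cx3cr1 probe was below detection throughout, at -4.21 and -6.19 in control and -6.55 and -6.22 after doxycycline. Another Cx3cr1 probe, seen on both control arrays, read -1.13 and -3.34 against -6.57 and -6.20. Ccr8, a receptor of T cell subsets that binds Ccl1 and Ccl8, had the opposite order. It read -4.63 and -4.25 in control, not well above background, and -1.15 and -2.50 after doxycycline, 4.04-fold higher against the floor (adjusted p = 0.320 by limma). Neither another Ccr8 probe nor its ligand gene Ccl1 was well above background anywhere. Under scaling to the array median Cx3cr1 and Ccr8 passed (adjusted p = 0.00306 and adjusted p = 0.0306 by limma). Both p-values rest on readings below background in 1 group. With normexp background correction the fitted differences were -1.06 for Cx3cr1 and 0.30 for Ccr8, beside -4.27 and 2.61 from the processed signal.

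Cxcr4, which binds Cxcl12 and retains progenitor cells in bone marrow, read -2.63 and -3.76 in control and -4.55 and -4.18 after doxycycline. It was not well above background after doxycycline and was 2.04-fold lower against the floor (adjusted p = 0.742). Ccr7, the lymph node homing receptor of dendritic cells and naive T cells, read -1.56 and -3.63 against -2.95 and -3.36 (-0.56 ± 0.70). Xcr1, a receptor of cross-presenting dendritic cells, and Cxcr6, which binds Cxcl16, were each seen on control array 1 alone. Xcr1 read -1.42 there and between -6.31 and -5.51 on the other arrays, and Cxcr6 read -2.57 there and between -6.19 and -4.88 elsewhere. The receptors of the ligands described above were largely below detection: Ccr1, Ccr2, Ccr3, Ccr4, Ccr6, Ccr9, Ccr10, Cxcr5 and Ccr1l1 were not well above background on any array. The 22 undetected genes, which also include the ligands Ccl20, Ccl22, Ccl26, Ccl28, Cxcl17 and Xcl1, read from -6.72 to -3.56, and no order was taken from those values.

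The atypical receptors were seen in all 4 cases. Ackr3, which takes up Cxcl12, was measured on all arrays, at 2.51 and 2.41 in control and 3.50 and 2.76 after doxycycline, with both doxycycline arrays above both control arrays (0.66 ± 0.44, adjusted p = 0.881). Ackr2, which removes inflammatory CC chemokines, read -0.48 and -2.41 in control and -0.26 and -0.25 after doxycycline (1.19 ± 0.65, adjusted p = 0.834). The control arrays differed by 1.92 for Ackr2 and the difference was 0.23 without control array 2, and another of its probes was below detection throughout. Ackr4, which removes Ccl19 and Ccl25, read -2.09 and -3.45 in control and -6.55 and -4.26 after doxycycline, not well above background. It was 2.75-fold lower against the floor (adjusted p = 0.520 by limma). Ackr1, the chemokine-binding protein of venules and red cells, was seen on doxycycline array 1 alone, at -3.61, and read -6.02 and -6.33 in control and -5.19 on doxycycline array 2.

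Genes of NF-kB signalling, inhibitors among them, mostly read higher on doxycycline array 1 than on doxycycline array 2 (18 of 21 tested, 49.7% of all genes). Of 21 tested NF-kB regulators and feedback targets, 20 lay above control by mean (45.2% of all genes), with a median difference of 0.63. Both doxycycline arrays lay above both control arrays for 9 of them (14.5% of all genes). For 7 of 21, doxycycline array 1 read at least 2 higher than doxycycline array 2 (0.853% of all genes). Bcl3, an atypical IkB protein, read 1.02 and -0.17 in control and 3.94 and 1.15 after doxycycline (2.13 ± 0.92, adjusted p = 0.730). Birc3, an inhibitor of apoptosis, differed by 1.70 ± 0.78, the adaptor gene Myd88 by 1.42 ± 0.57 and Irak3, which dampens Toll-like receptor signals, by 1.56 ± 0.58. Of 14 cytokine and cytokine receptor genes tested, 11 lay above control by mean (45.2% of all genes), with a median of 0.52. Those with the smallest p were Ifngr2 (-1.29 ± 0.52), Il6ra (1.31 ± 0.56), Osmr (1.51 ± 0.67) and Il33 (0.49 ± 0.41). None of these genes passed over all genes.

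The single genes below were chosen after their values were seen, so their order is no support for a split. Of 14 tested cytokine and cytokine receptor genes, 3 read at least 2 higher on doxycycline array 1 than on doxycycline array 2. Of 14 tested adhesion genes, 2 did so, against 0.853% of all genes. Il6 read 2.74 on doxycycline array 1 and between -6.24 and -4.33 on the other arrays, where it was not well above background. Tnf read 0.97 on doxycycline array 1, -2.94 and -4.83 in control and -5.71 on doxycycline array 2. The endothelial selectin genes Sele and Selp, which slow rolling leukocytes, were seen on doxycycline array 1 alone, at 0.30 and 0.20. Icam1, the endothelial ligand of leukocyte integrins, read -1.38 and -3.35 in control and 3.37 and -1.69 after doxycycline (3.20 ± 1.53, adjusted p = 0.786). In the adhesion list as a whole, 6 of 14 tested genes lay above control (45.2% of all genes) and 8 below (54.8%), with a median of -0.09. Its other genes with the smallest p were Selplg, the selectin ligand of leukocytes (-1.50 ± 0.42), Jam3 (-1.16 ± 0.48) and the integrin gene Itgal (-0.43 ± 0.43).

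Genes that act below the receptors were divided. Of 23 tested, 8 lay above control (45.2% of all genes) and 15 below (54.8%), with a median of -0.22. Grk5, a kinase that desensitises G protein-coupled receptors, read 0.47 and 0.41 in control and 1.82 and 1.94 after doxycycline (1.44 ± 0.39, adjusted p = 0.419). Pik3r5, a regulatory subunit of the PI3-kinase that G proteins activate, was below background on both control arrays and 3.81-fold higher after doxycycline against the floor. The myeloid kinase gene Lyn was below background on both doxycycline arrays and 2.51-fold lower against the floor (adjusted p = 0.394 by limma), and Stat3 differed by 1.16 ± 0.47. Chemokine-like genes with other names, of which 5 were tested, had a median of -0.76, with the chemerin gene Rarres2 at -0.997 ± 0.49, Pitpnm3 at -0.76 ± 0.40, the platelet chemokine gene Pf4 at -0.82 ± 0.69 and Ccrl2 at 0.41 ± 0.39.

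Markers of other cells moved with the arrays, and their part in the chemokine values was not tested. Of 17 monocyte and macrophage markers on the array 16 were well above background on at least 1 array, Cd163 being the exception. Of 15 tested, 12 lay below control (54.8% of all genes), with a median of -1.01. The summed level of this list, in units of the 75th percentile, was 221 and 64.3 in control against 179 and 169 after doxycycline. Of 14 neutrophil markers 11 were well above background and 6 were tested, 3 above control (45.2% of all genes) and 3 below (54.8%). Their list had sums of 75.8 and 41.2 in control against 53.2 and 56.8 after doxycycline. Of the defining markers, Mmp9, Mpo and Cxcr2 were not well above background. S100a8 read -2.19 and -3.65 in control and 1.61 and -0.11 after doxycycline (3.67 ± 0.73, adjusted p = 0.295), and S100a9 and Retnlg differed by 3.26 ± 0.66 and 2.33 ± 0.57. These 3 genes read above both control arrays on both doxycycline arrays, and highest on array 1. Mmp8, Ngp, Fpr1 and Fpr2 were well above background on doxycycline array 1 alone, as Cxcl2 and Cxcl5 were, at -3.46, -2.07, -2.76 and -3.37. Csf3r, Camp and Elane lay below control by mean, and Ltf was seen on control array 2 alone. The neutrophil sum was carried by Csf3r, which read 6.14 and 5.24 in control against 5.13 and 5.61 after doxycycline.

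Of 16 endothelial markers all were detected, with sums of 709 and 266 in control against 320 and 396 after doxycycline. All 15 fibroblast markers were detected, and 14 lay below control, as 54.8% of all genes did (median -1.86, sums of 378 and 133 in control against 118 and 139 after doxycycline). The 10 pericyte and smooth muscle markers, all detected, summed to 84.7 and 85.0 in control and 66.3 and 56.0 after doxycycline. Red cell markers, 6 of 8 detected, summed to 344 and 72.0 against 48.6 and 58.0. Heart muscle markers summed to 5350 and 6738 in control and 4449 and 5142 after doxycycline. Dendritic cell markers (7 of 9 detected, without Flt3 and Clec9a) summed to 64.2 and 28.1 against 23.7 and 51.6. Markers of T and natural killer cells (6 of 12 detected), B cells (4 of 7) and mast cells, basophils and eosinophils (3 of 9) summed to at most 7.90 on any array. Control array 1 had the highest sum of the 4 arrays for endothelial, fibroblast, macrophage, red cell, neutrophil and dendritic cell lists. Ly6c1 carried the macrophage sum (7.53 on control array 1), Siglech the dendritic cell sum (5.97) and Csf3r the neutrophil sum. Gene by gene, control array 1 also lay above control array 2, by medians of 1.70, 1.23 and 1.085 over the tested macrophage, dendritic cell and neutrophil markers.

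**Figure D4:**
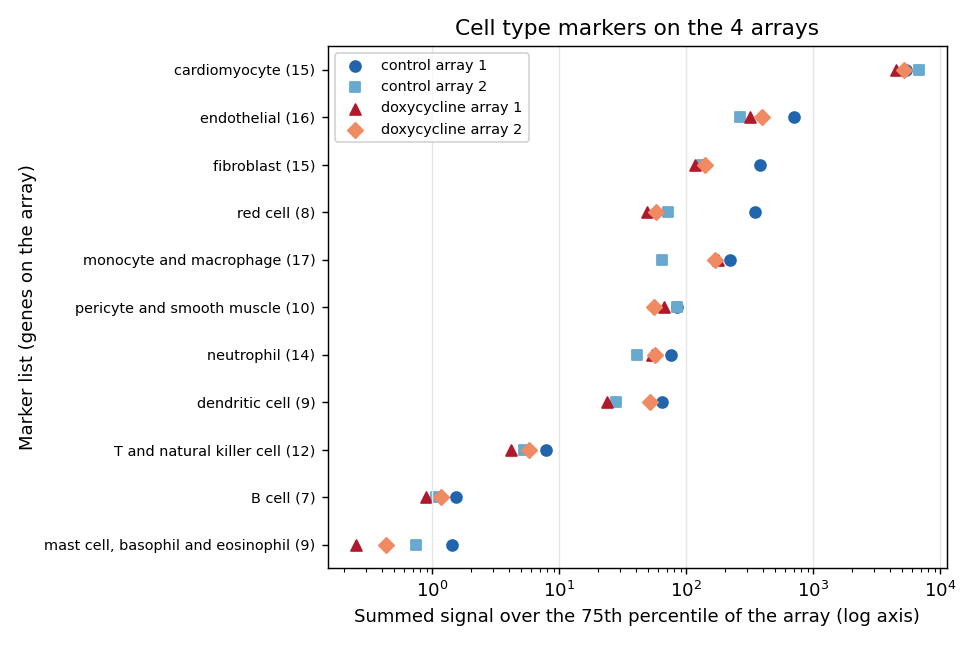
Summed processed signal of each cell type marker list in units of the 75th percentile of the array (x axis, logarithmic) on the 4 arrays, with the number of genes on the array in brackets. Control array 1 lies furthest right for the endothelial, fibroblast, red cell, macrophage, neutrophil and dendritic cell lists. The doxycycline arrays lie close together for the fibroblast, macrophage and neutrophil sums. Ly6c1 carried the macrophage sum and Csf3r the neutrophil sum, so these sums alone say little about the other markers. Over the tested genes of these lists, control array 1 lay above control array 2 by medians of 1.70 and 1.085.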

How the data were processed

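RNA of heart muscle cells labelled with Cy3 was hybridised to 4 one-colour Agilent arrays, grouped by sample title. Agilent Feature Extraction 10.7.1.1 read the spots, per the file headers. Its processed intensity, as deposited, had been corrected for background and detrended inside each array, with no scaling between arrays. The other columns used, per the file headers, are median spot and background intensity and flags. No spot was saturated, and 0 columns belonged to other series. The 4 arrays shared 1 slide and 1 scan, with control arrays at positions 1 and 2 and doxycycline arrays at 3 and 4, so position and treatment cannot be told apart. Probes were named by accession, without versions, through RefSeq (GRCm38.p6), which named 27484 of 39429 probes, while 1639 RefSeq accessions had no match and 35 probes whose spots were all outliers on some array were left out. The design build is mm9, and promoter coordinates are those of GRCm38.p6.

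From the deposited intensity, log2 values were formed and each array's 75th percentile over non-control spots was taken off; flagged outlier spots were dropped and spots of a probe averaged. A gene was kept when 2 or more arrays had a probe of it well above background (12542 genes), each by its brightest probe. The two-sided test was limma's (version 3.58.1, lmFit and eBayes, R 4.3.3), adjusted by Benjamini-Hochberg across those genes, with a threshold of 0.05. With 2 against 2 arrays a permutation test cannot go below 0.333. The number of arrays and signal over background set the precision, and steps were tested on simulated data. The set, the lists and the tests were chosen with earlier results of these data known. All members are named, with array values for those with the smallest p or the largest gap between doxycycline arrays and for key receptors, and up to 4 genes per pathway list. A few single genes are not reported here. Counts with each array left out, and gaps with readings below background at the floor, were added after the data were seen. Alternatives are given in the closing section. Python 3.11.15 and matplotlib 3.10.9 made the figures.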

Additional observations from a re-analysis of the deposited data

How the results depend on the processing

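With the main settings, 0 genes were called higher, 0 lower and 0 in the chemokine set. Scaling to the array median gave 95 higher, 33 lower and 2 in the set (Ccr8 and Cx3cr1), and it moved the median of all genes from -0.06 to 0.29. The replicate number as a block gave 152, 143 and 4 (Ackr4, Ccl24, Ccr8 and Cx3cr1); the labels do not say that a number pairs samples, and same-numbered arrays deviated from their group means with a correlation of -0.085, so the number gave no sign of a pairing. Calling genes by the unadjusted p (0.05) and a shift of 1 or more either way gave 394, 479 and 5. Leaving out 1 array gave 0 to 87 higher, 0 to 84 lower and 0 to 7 in the set. The 7, without doxycycline array 2, were Ackr4, Ccl2, Ccl3, Ccl4, Ccr8, Cx3cr1 and Cxcl1, and the 3 without doxycycline array 1 were Ccl12, Ccl4 and Cx3cr1. Normexp, quantile normalization, the other filters, the mean of probes, a variance trend and a robust variance gave 0 calls in the set. The median difference of the set was -0.35, and -1.09 to 0.37 with an array left out.

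Under the 10 settings other than leaving out an array, 265 of 271 member values kept their direction. The reversed ones were Ccl19 (-0.34), Ccl4 (0.40) and Cxcl10 (-5.5e-05) with normexp, Ccl11 (0.033) with quantile normalization, and Ccl11 (0.34) and Ccl25 (0.065) with median scaling. With an array left out, 12 members reversed: Ccl2 ranged from -1.63 to 3.57, Ccl3 from -2.34 to 2.94, Ccl4 from -5.31 to 2.93, Ccl5 from -2.66 to 0.043, Ccl7 from -1.85 to 2.51, Ccl11 from -0.63 to 0.61, Ccl12 from -3.79 to 0.23, Ccl19 from -0.67 to 0.77, Ccr7 from -1.59 to 0.48, Cx3cl1 from -0.45 to 1.23, Cxcl1 from -0.74 to 3.48 and Cxcl10 from -2.44 to 2.60. The causes were not tested. Members above control by mean numbered 6 to 16 and those below 12 to 22, and those with groups that did not overlap 5 to 13 higher and 8 to 19 lower, where 21.6% to 41.4% and 29.9% to 44.3% of all genes did so. With readings below background at the floor, chosen after seeing the data, 7 members kept a gap of 2 or more on doxycycline array 1 and 0 (from 1) on array 2. Signals near background limit Cx3cr1, Ccr8, Ackr4 and Cxcr4, for which a fold against the floor is given, and Ccl24 on doxycycline array 1.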
